A study of Homo sapiens with 4 samples.

Results

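Very long genes were taken as RefSeq protein-coding genes of chromosomes 1 to 22 whose annotated span, from the lowest start to the highest end, reached 500 kb on hg38. This length rule used no measured value and found 303 of 19122 genes. Their merged spans covered 251 Mb, or 8.72% of the autosomal sequence between the first and the last gene of each chromosome. Chromatin immunoprecipitation followed by sequencing (ChIP-seq) had been done on untreated MDA-MB-231 cells, a subclone of this line of human triple-negative breast cancer with the genotype wild type on its label, with an antibody against the HA tag. The labels give 2 PD-L1 ChIP samples and 2 input samples (chromatin DNA without an antibody), numbered 1 and 2, and the series calls the replicates independent. PD-L1 is the ligand of the immune receptor PD-1, mainly a protein of the cell surface. How the cells came to carry an HA tag was not stated in the labels, and they are a single subclone.

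Each ChIP replicate came as a list of broad peaks, which are stretches of the genome where a peak caller found more ChIP reads than background. Replicate 1 held 166628 peaks and replicate 2 held 93618. Of the autosomal peaks, 10477 in replicate 1 (6.3%) and 6098 in replicate 2 (6.55%) had their centre in a very long gene. The reads behind the lists were not analysed here, so the sequencing depth is unknown, and the inputs have no peaks of their own here. Peaks were weak in both lists. Inside very long genes the median fold enrichment given by the authors' caller was 3.09 in replicate 1 and 2.31 in replicate 2, beside 3.11 and 2.28 in the flanks, and the median peak width was 536 bp and 605 bp.

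Genes of this length are made almost entirely of introns. Many encode proteins of nerve cells, such as adhesion molecules, ion channels and synaptic scaffolds, and many stand in sequence with few other genes. RNA polymerase needs hours to cross such a gene, and several of them hold common fragile sites, which break when replication is slowed. They were spread over 21 of the 22 autosomes, with 33 on chromosome 3, 26 on chromosome 7, 24 each on chromosomes 1 and 2, and 0 on chromosome 19. Another protein-coding gene lay inside 41 of the spans, and 3 spans held 5 or more: GPHN held 12, LRRC37A2 held 6 and RANBP2 held 5.

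The start of transcription is where both lists touched these genes most densely, so the promoters with a peak of both replicates are shown first. A shared region is the union of peaks that overlap by at least 1 bp and includes a peak of each list. RefSeq promoters (GRCh38.p14, which is hg38) run from 250 bases before to 50 bases after an annotated start and were matched for 251 of the 303 genes. The sequences below are read 5′ to 3′ along the gene, and the capitals mark a GC box (GGGCGG, or CCGCCC on the other strand), the short motif bound by Sp1-type factors. SCAPER, KHDRBS2, SEMA5A and ADK have a shared region at the outermost start of the gene, and the SDK1 promoter is an internal one, 828433 bp from the outer end.
SCAPER: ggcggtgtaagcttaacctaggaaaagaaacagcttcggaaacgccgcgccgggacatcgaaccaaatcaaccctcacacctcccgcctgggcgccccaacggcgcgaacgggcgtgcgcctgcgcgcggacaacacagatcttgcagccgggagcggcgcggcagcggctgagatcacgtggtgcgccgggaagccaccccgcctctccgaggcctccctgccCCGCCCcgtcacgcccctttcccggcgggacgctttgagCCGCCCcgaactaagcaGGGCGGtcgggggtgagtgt
KHDRBS2: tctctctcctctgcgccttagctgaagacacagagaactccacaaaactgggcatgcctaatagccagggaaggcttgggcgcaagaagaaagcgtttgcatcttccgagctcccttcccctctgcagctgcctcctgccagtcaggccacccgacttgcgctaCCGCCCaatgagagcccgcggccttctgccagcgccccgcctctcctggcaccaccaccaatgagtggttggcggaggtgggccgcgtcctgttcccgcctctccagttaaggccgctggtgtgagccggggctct
SEMA5A: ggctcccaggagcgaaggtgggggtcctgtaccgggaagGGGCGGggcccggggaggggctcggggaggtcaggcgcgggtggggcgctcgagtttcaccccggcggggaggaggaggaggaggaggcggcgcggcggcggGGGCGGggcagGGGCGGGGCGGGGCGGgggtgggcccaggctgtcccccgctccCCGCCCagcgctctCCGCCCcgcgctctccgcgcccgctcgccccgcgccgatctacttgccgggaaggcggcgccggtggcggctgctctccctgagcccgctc
ADK: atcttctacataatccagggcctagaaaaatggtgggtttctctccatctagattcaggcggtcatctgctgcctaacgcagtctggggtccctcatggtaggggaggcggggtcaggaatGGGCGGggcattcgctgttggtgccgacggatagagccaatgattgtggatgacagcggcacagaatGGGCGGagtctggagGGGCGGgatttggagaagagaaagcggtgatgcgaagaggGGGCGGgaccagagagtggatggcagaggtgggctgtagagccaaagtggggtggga
SDK1: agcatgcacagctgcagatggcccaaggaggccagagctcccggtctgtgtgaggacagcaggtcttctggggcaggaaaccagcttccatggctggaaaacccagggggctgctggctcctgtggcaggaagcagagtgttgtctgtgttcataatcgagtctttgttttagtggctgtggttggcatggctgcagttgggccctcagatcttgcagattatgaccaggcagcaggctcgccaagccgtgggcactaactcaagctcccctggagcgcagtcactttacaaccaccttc
The SCAPER promoter (chr15:76905291-76905590, minus strand) is 69% G and C and holds 3 GC boxes. Its shared region had a fold of 3.86 in replicate 1 and 2.31 in replicate 2. KHDRBS2 (chr6:62286176-62286475, minus strand), which encodes an RNA-binding protein, has 1 GC box, with folds of 3.34 and 2.42. SEMA5A (chr5:9546026-9546325, minus strand), a semaphorin that guides axons, is 81% G and C with 6 GC boxes that do not overlap, and had folds of 3.37 and 2.33. ADK (chr10:74150971-74151270, plus strand), which encodes adenosine kinase, has 4 GC boxes, with folds of 3.4 and 2.27. The internal SDK1 promoter (chr7:4129435-4129734, plus strand), in a gene for a synaptic adhesion protein, has 0 GC boxes and folds of 3.54 and 2.48. A GC box stood in 45% of all 33725 autosomal promoter windows of this length and in 41.5% of the 588 windows of very long genes, which were 51.5% of the 66 windows with a shared region and 40.2% of the 522 without. The motif is a description of the letters only.

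Peaks within 1 kb of the outermost start were found for 132 of 251 very long genes in replicate 1 (52.6%, Wilson 95% interval 46.4 to 58.7) and for 44 in replicate 2 (17.5%, 13.3 to 22.7). Both intervals cover counting error only. A shared region lay there in 30 genes (12%, 8.5 to 16.5). Among them were DLG2, FHIT, MAGI1, MAGI2, PTPRG, ROBO1, NAV2 and SOX6. Genes of 200 to 500 kb had a shared region at 19% of 860 outermost starts (16.5 to 21.7), and all shorter protein-coding genes together, this class included, at 26% of 14849 (25.3 to 26.7). The intervals of the very long genes lay below those of all shorter genes in both lists and for shared regions. Against genes of 200 to 500 kb, which had a peak at 66% of starts in replicate 1 (62.8 to 69.1) and 25.8% in replicate 2 (23 to 28.8), the intervals did not overlap in either list and met at 16.5% for shared regions. The further starts inside very long genes had a shared region at 10.7% of 337 windows. Windows of the same length tiled over the whole spans had a peak in 10.6% (replicate 1) and 6.46% (replicate 2), and a shared region in 3.27%.

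Peak density, in peaks per 100 kb of span, ranged widely among the 303 genes. In replicate 1 the median was 2.18, the lowest and highest were 0 and 28, and the middle 80% of genes ran from 0.302 to 12.9. In replicate 2 the median was 1.43, with 0 and 22.5 at the ends and 0.193 to 7.17 between them. The order of the genes was much the same in both lists, with a Spearman correlation of 0.924 across 303 genes (a description, since the genes share the libraries). Each gene was set against 500 kb on each side, its flanks. The flanks had medians of 3.2 peaks per 100 kb in replicate 1 and 1.8 in replicate 2, and flank and span densities moved together (Spearman 0.806 and 0.785). Genes in denser neighbourhoods were thus denser themselves. A rank correlation does not make the 2 densities equal, and the median size of the log2 difference between gene and flanks was 0.749 and 0.655.

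More very long genes lay below their neighbourhood in peak density than above it. Density inside was below the flanks in both lists for 158 of the 303 genes and above them in both for 78. For the other 67 the lists disagreed or at least 1 list showed no difference. These counts were not set beside those of other genes. The log2 ratio of span to flank density, with 0.5 peaks added to each count, had a median of −0.36 in replicate 1 and −0.27 in replicate 2 (mean of the lists −0.31 ± 0.059, SD, n = 2). Summed over all 303 genes, density was 4.19 inside and 5.21 in the flanks in replicate 1, a ratio of 0.804. In replicate 2 it was 2.44 and 2.95, a ratio of 0.827. The 1037 genes of 200 to 500 kb showed nearly equal densities, with summed ratios of 0.974 and 0.987 and a median log2 ratio of −0.01 in each list. Genes of 100 to 200 kb had 0.967 and 0.954. Genes of 50 to 100 kb had 0.974 and 0.952, so a summed ratio below 1 was not particular to very long genes. Over all 19122 protein-coding genes the summed ratios were 0.794 and 0.785. In that sum long genes weigh most inside the spans, while short and long genes add flanks of the same length. It therefore cannot be compared directly with the ratio of a class of similar lengths. The same weighting enters the summed ratios of the 303 genes, whose spans also differ in length.

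Within the very long genes the summed ratio was lower in the longer length classes. In each sum the longest genes weigh most inside the spans, and the class of 1000 kb or more has no upper limit. It was 0.94 and 0.939 (replicates 1 and 2) for the 165 genes of 500 to 750 kb. It was 0.842 and 0.878 for the 72 genes of 750 to 1000 kb, and 0.697 and 0.761 for the 66 genes of 1000 kb or more. The median log2 ratio of single genes did not follow that order in replicate 1, at −0.13, −0.60 and −0.56 for the 3 classes, and was −0.08, −0.48 and −0.64 in replicate 2. Nor did the share of tested genes called lower in both lists by the test described below, at 8.45%, 10.5% and 5.66%. The ranking by single gene was loose, with a Spearman correlation between span and log2 ratio of −0.14 in replicate 1 and −0.16 in replicate 2. The neighbourhood itself was uneven. The median size of the log2 difference between the 2 flanks of a gene was 0.918 in replicate 1 and 0.881 in replicate 2. Between gene and flanks it was 0.749 and 0.655. The first sets 500 kb against 500 kb, and the second a whole span against both flanks together. Shorter windows hold fewer peaks and vary more, so the 2 sizes cannot be ranked. Density lay below each of the 2 flanks in both lists for 78 genes and above each of them for 39, counts that were not set beside those of other genes. The number of protein-coding genes in the flanks, 4 at the median, went with density (Spearman 0.399 and 0.414) and hardly with the ratio (−0.04 and 0.05).

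**Figure D1:**
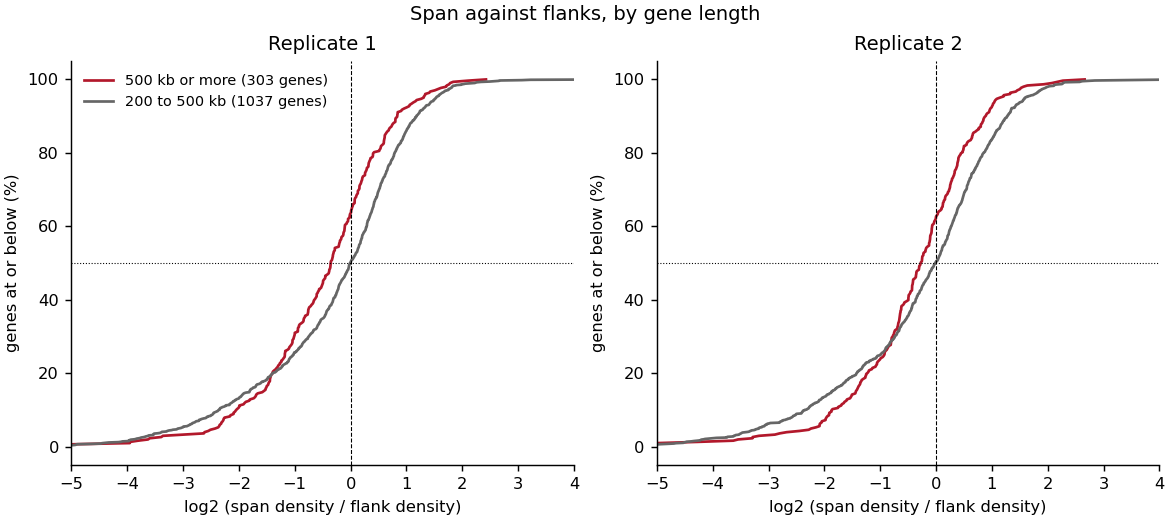
Cumulative share of genes (%, y axis) by the log2 ratio of peak density in the span to that in the flanks (x axis), for 303 genes of 500 kb or more (red) and 1037 genes of 200 to 500 kb (grey), 1 panel per replicate. The red curve crosses 50% at −0.36 in replicate 1 and −0.27 in replicate 2, left of the grey curve at −0.01, while at the far left the grey curve lies above the red one.

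Single genes were tested with a two-sided exact binomial test of span against flank peaks in each list, adjusted by Benjamini-Hochberg over all autosomal protein-coding genes with at least 10 peaks in span and flanks. A gene was called when the adjusted p was under 0.05 in both lists in the same direction. Of the very long genes, 252 could be tested in both lists. Lower density was called for 47 in replicate 1 (17.1% of those tested, beside 3.15% of all genes), for 22 in replicate 2 (8.66%, beside 1.06%) and for 21 in both (8.33%, beside 0.999%). Higher density was called for 22 (8%, beside 3.82%), for 8 (3.15%, beside 1.12%) and for 8 in both (3.17%, beside 0.806%). No gene was called in opposite directions by the 2 lists. A long span holds more peaks and is easier to call, and in the class of 200 to 500 kb the shares called in both lists were 8.02% lower and 5.27% higher. The share called lower was therefore near that of the next shorter genes.

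The exact test takes peaks as independent, and they were clustered: counts of neighbouring 100 kb tiles varied 1.84 times (replicate 1) and 1.42 times (replicate 2) as much as such counts would. That factor was used in a different test, a normal approximation for the log ratio with 0.5 peaks added, in place of the exact test. There 9 genes remained lower and 4 higher of 252 tested, beside 14 (0.0818%) and 82 (0.479%) of all 17120 genes tested. Both the factor and the kind of test changed, so the lost calls cannot be put down to clustering alone. The factor covers variation between neighbouring 100 kb tiles only. Variation over the distances of spans and flanks was not included, so the calls that remained were not tested against it. When peaks within 5 kb were merged, 1 of 251 genes tested was called lower (SUPT3H), beside 0.0119% of all genes, and 0 higher, beside 0%. At an unadjusted exact p under 0.05, this setting had 23 lower and 7 higher. SUPT3H was also the 1 gene called lower with peaks of a −log10 q of 2 or more (beside 0.00785%) and with peaks above the median fold of their list (beside 0.0259%), where 0 and 1 (RANBP2) were called higher, beside 0% and 0.0259%. These 2 settings had 153 and 212 very long genes tested in both lists, with 14 and 18 lower and 3 and 6 higher at an unadjusted exact p under 0.05. The mean log2 ratio at the q limit was still −3.63 for ADK, −3.35 for SOX6 and −3.37 for EXOC6B. With equal numbers of peaks in both lists, 18 were called lower and 5 higher of 221 tested, beside 0.775% and 0.574% of all genes.

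**Figure D2:**
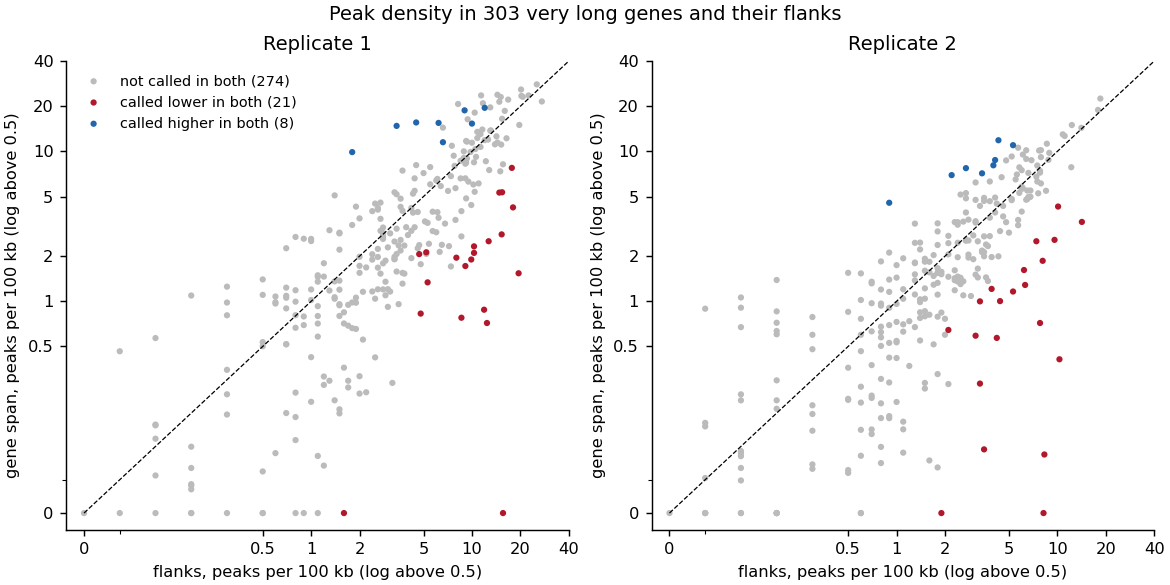
Peaks per 100 kb in the flanks (x axis) and in the span (y axis) of each of the 303 very long genes, 1 panel per replicate, on axes that are linear up to 0.5 and logarithmic above. The dashed line marks equal density; 21 genes called lower in both lists (red) fall below it and 8 called higher (blue) lie above it, and most grey points follow the line.

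EXOC6B, a subunit of the exocyst that tethers secretory vesicles, had the smallest adjusted p. It held 10 peaks in replicate 1 against 195 in its flanks, and 3 against 103 in replicate 2. Both flanks were dense, with 99 and 96 peaks in replicate 1. The log2 ratios were −3.60 and −4.26, with adjusted p of 2.97e-26 and 1.26e-14 (exact binomial test). SUPT3H, which encodes a part of the SAGA transcription co-activator, held 5 peaks against 119 and 1 against 83, with log2 ratios of −3.63 and −4.98. Of the 2 lists' peaks in SUPT3H none met, so that it had 0 shared regions.

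ADK held 4 peaks in each list, against 124 and 78 in the flanks, and its log2 ratios were −3.95 and −3.28. Its span had 2 shared regions, and the one at the promoter shown above was not among them, since its centre lay just outside the span. SOX6, a transcription factor gene of cartilage, muscle and red cell development, held 6 peaks against 86 and 3 against 33. Between its peaks lay a stretch of 572 kb without a peak of either list, 74.1% of the span, although a shared region stood within 1 kb of its outermost start. FAF1, SBF2, HPSE2, ATRNL1, CDKAL1, C12orf42, CEP112, DOCK3, EXOC4, ULK4, AGBL4 and RAD51B were also called lower, with mean log2 ratios between those of SOX6 and RAD51B (−3.12 and −1.20). RAD51B, a DNA repair gene, was the weakest of them, with 67 peaks against 177 and 37 against 101.

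ANXA8 and DLGAP2 had 0 peaks in both lists. ANXA8, which encodes an annexin, had 156 and 82 peaks in its flanks. Its RefSeq span holds 4 other protein-coding genes, and a near-identical copy of the gene lies in the same region, so the count of 0 there is uncertain. DLGAP2, which encodes a scaffold protein of excitatory synapses, had 16 and 19 flank peaks, all in the flank of lower coordinates. The opposite flank had 0. Its call thus rests on 1 of its 2 flanks.

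RANBP2, which encodes a nuclear pore protein, had the highest ratio. It held 111 peaks against 18 in the flanks in replicate 1 and 51 against 9 in replicate 2, with log2 ratios of 2.42 and 2.27 (adjusted p 2.67e-12 and 0.000113, exact binomial test). Its RefSeq span of 1123 kb includes 5 other protein-coding genes, and partial copies of RANBP2 lie nearby, so this value is uncertain. ZFHX3, which encodes a large homeobox transcription factor, held 164 peaks against 34 and 77 against 22, at log2 ratios of 2.1 and 1.64. NAV2, a neuron navigator that binds microtubules, held 121 against 45 and 60 against 27, and 27 shared regions.

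GRID1, which encodes a glutamate receptor subunit of the delta family, held 144 peaks against 90 and 91 against 43, with log2 ratios of 1.06 and 1.46 and 52 shared regions. TENM4, a teneurin adhesion protein, held 122 against 62 and 69 against 41. THSD4, FSTL4 and NTM completed the 8, with log2 ratios from 0.61 to 1.06. Peaks lay along most of the length of these spans, where EXOC6B, SUPT3H and ADK showed a gap between dense flanks, as the map of 20 genes shows. With the overdispersion factor of neighbouring 100 kb tiles, RANBP2, GRID1, NAV2 and ZFHX3 stayed called higher. Those that stayed called lower were EXOC6B, ULK4, DOCK3, SUPT3H, ADK, HPSE2, ATRNL1, ERC1 and RAD51B.

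**Figure D3:**
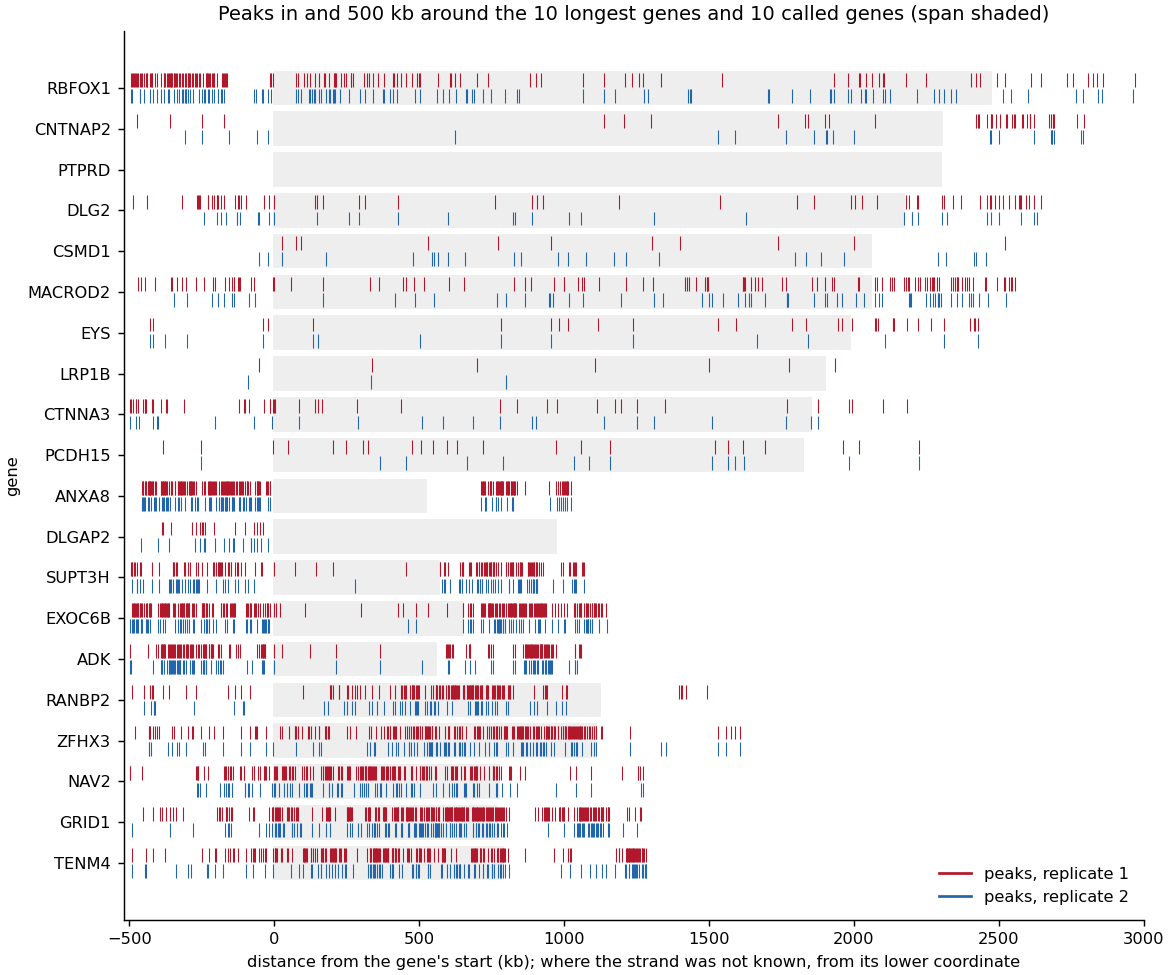
Each tick is a peak centre of replicate 1 (red) or replicate 2 (blue), by distance in kb (x axis) from the gene's start or, for CSMD1, LRP1B and other genes of unknown strand, from its lower coordinate, for the 10 longest genes and the 5 lowest and 5 highest called genes (y axis), with the span shaded and 500 kb on each side drawn. ANXA8, DLGAP2 and PTPRD have no tick in the span, EXOC6B, SUPT3H and ADK few between dense flanks, and the 5 genes at the bottom have many.

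The 10 longest genes ran from 1825 kb to 2474 kb. RBFOX1 (2.71 and 2.87 peaks per 100 kb) and MACROD2 (2.38 and 1.65) were denser than the median very long gene in both lists, and the other 8 were less dense than it in both. RBFOX1, a splicing regulator of nerve and muscle and the longest gene, held 67 peaks in replicate 1 and 71 in replicate 2. Its flanks held 86 and 50, of which 75 and 42 were in the flank before the start. The log2 ratio was −1.66 in replicate 1 (adjusted p 1.2e-09, exact binomial test) and −0.80 in replicate 2 (adjusted p 0.107). Only 14 peaks of each list met inside RBFOX1. CNTNAP2, a neurexin-like protein of axons, held 9 peaks in each list against 32 and 15, and none of the 9 met; its adjusted p was 1.01e-07 in replicate 1 and 0.055 in replicate 2.

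DLG2, a synaptic scaffold of the PSD-95 family, was the one gene of the 10 called in both lists. It held 18 and 14 peaks over 2173 kb, against 48 and 21 in its flanks, with log2 ratios of −2.51 and −1.69 and adjusted p of 3.25e-09 and 0.0379 (exact binomial test). MACROD2, which removes ADP-ribose from proteins, held 49 and 34 peaks, and CTNNA3, an alpha-catenin of cell junctions, held 17 and 13. Both were called lower in replicate 1, with adjusted p in replicate 2 of 0.182 and 0.842. EYS, a photoreceptor protein gene, held 13 and 8 peaks, with adjusted p of 0.0558 and 0.736.

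CSMD1, a complement-regulating membrane protein, and PCDH15, a protocadherin of hair cells, went the other way without a call. CSMD1 held 10 and 20 peaks against 1 and 7, and PCDH15 held 18 and 11 against 6 and 3. LRP1B, a relative of the LDL receptor, held 5 and 2 peaks in 1900 kb, and its flanks of 1000 kb in all held 2 and 1. PTPRD, a receptor tyrosine phosphatase that organises synapses, had 0 peaks in both lists, in its span and in both flanks.

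Peaks thinned out in the first part of the gene and grew denser toward its end. Strand was taken from the promoter table for 251 genes. Summed over them, with the span cut into 10 equal parts, density in replicate 1 was 4.1 per 100 kb in the first part, 3.19 in the fourth, and 5.46 and 6.12 in the last 2. In replicate 2 the values were 2.37, 2.07, 3.15 and 3.56. The 50 kb beyond the end had 6.24 and 3.55, and the 50 kb before the start 4.55 and 2.26. The last 20% of the span had 5.79 peaks per 100 kb against 3.87 in the first 20% in replicate 1 (1.5 times), and 3.35 against 2.27 in replicate 2 (1.48 times).

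The direction was the same with each gene given equal weight. Among genes with at least 10 peaks, the last of the 10 parts held on average 16.9% of a gene's peaks in replicate 1 (173 genes) and 16.6% in replicate 2 (136 genes), and the first part 11.3% and 9.29%. In both lists 99 genes had more peaks in the last 20% than in the first 20%, and 50 had more in the first. No test was made of this count. Genes of 200 to 500 kb showed the same direction, at 1.31 and 1.36 times, with 263 and 107 of 860 genes. The 50 kb at either end together had 1.42 ± 0.04 times the density of the interior (SD, n = 2 lists). The first 1 kb inside the start stood out, at 27.1 and 9.96 peaks per 100 kb, beside 3.73 and 2.24 at 20 to 50 kb. At the end, the last 1 kb had 5.98 and 4.78, and 7.77 and 5.18 were found 1 to 5 kb inside it. Density near the start was thus narrow, and near the end it spread over 100 kb.

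**Figure D4:**
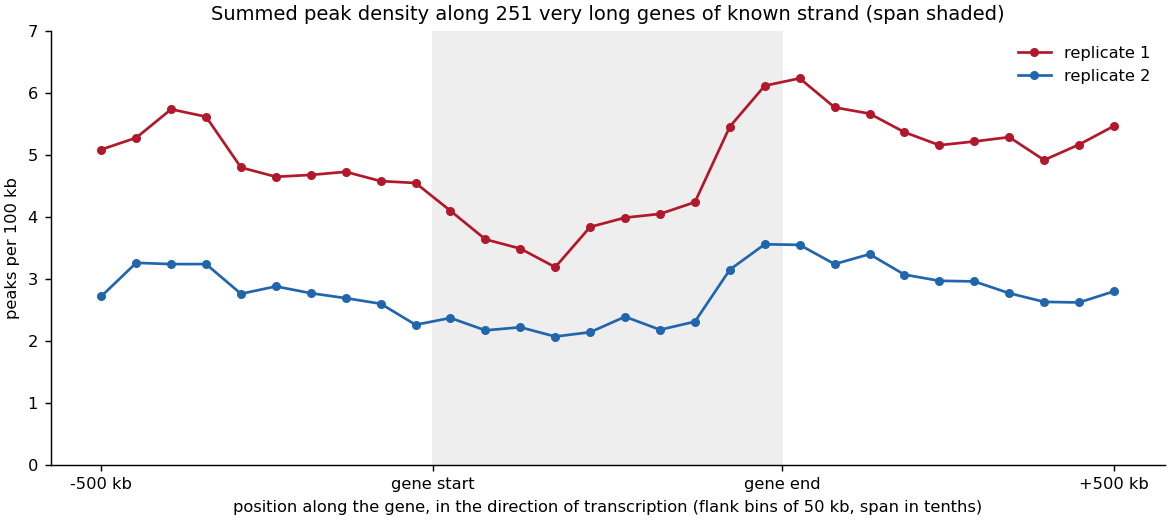
Summed peaks per 100 kb (y axis) along 251 very long genes of known strand in the direction of transcription (x axis), with 10 bins of 50 kb on each side and the span in 10 parts (shaded). In both lists the curve is lowest in the fourth part, at 3.19 (replicate 1, red) and 2.07 (replicate 2, blue), and reaches 6.12 and 3.56 in the last part.

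Long stretches without a peak took up much of these genes. Stretches of at least 100 kb free of both lists covered 38% of the spans, beside 31% of the flanks, 35.2% of the autosomes and 20.2% of protein-coding genes under 500 kb. For single lists the shares were 49.8% of the spans and 40.8% of the flanks in replicate 1, and 58.3% and 51.4% in replicate 2. The longest stretch free of both lists was 133 kb in the median gene, 17.3% of its span, and it took more than 50% of the span in 30 genes. In all, 8 genes had 0 peaks in both lists: ADGRL3, ANXA8, CNBD1, DLGAP2, ENTREP2, NCAM2, PTPRD and PTPRK.

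PTPRD had the longest of these stretches, all of its 2299 kb. The stretch went on beyond the gene on both sides, over chr9:7238829-12091693 or 4853 kb, the fifth longest of the autosomes once gene-free sequence was taken out. DLGAP2 followed with 971 kb, inside a stretch of 2167 kb, and NAALADL2, a fragile site gene, with 965 kb at its end. ADGRL3, which encodes latrophilin 3, an adhesion receptor, was free over its 878 kb, inside a stretch of 1696 kb. KCNIP4, a subunit of A-type potassium channels, had 759 kb without a peak. ENTREP2, ADAMTSL1 and LRRC37A2 also met 1 of the 25 longest autosomal stretches, the one at ENTREP2 being 4038 kb long. A peak list cannot tell sequence without binding from sequence where reads could not be placed or that the cells lack.

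**Figure D5:**
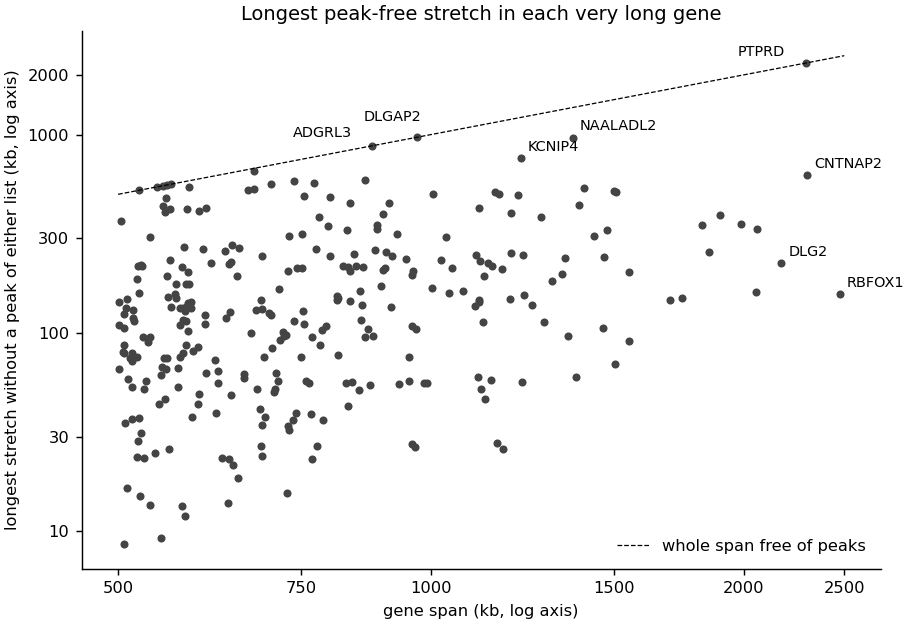
Longest stretch without a peak of either list (kb, log y axis) against gene span (kb, log x axis) for the 303 very long genes, with the dashed line where the whole span is free. PTPRD, DLGAP2 and ADGRL3 lie on the line, while RBFOX1, the longest gene, had 157 kb.

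The 2 lists met less often inside very long genes than elsewhere. Of the peaks of replicate 1 in the spans, 23.5% overlapped a peak of replicate 2 (Wilson 95% interval 22.7 to 24.3), against 27.6% in the flanks (26.8 to 28.3) and 31.1% in shorter protein-coding genes (30.8 to 31.4). Of the peaks of replicate 2, 40.5% overlapped replicate 1 (39.3 to 41.8), against 49.7% (48.6 to 50.8) and 58.9% (58.4 to 59.3). The other list also covered less sequence there. Replicate 2 covered 1.74% of the spans, 2.19% of the flanks and 3.75% of shorter protein-coding genes. Replicate 1 covered 3.1%, 4.4% and 8.84% of them. The part of this coverage in the overlap was not tested, so the shares do not show poorer agreement at equal coverage. Among the genes themselves, overlap went with density, without allowance for the other list having more peaks to meet in denser genes. In the 101 genes of lowest density 11.6% of replicate 1 peaks and 17.4% of replicate 2 peaks overlapped, in the middle 101 genes 14.5% and 21.9%, and in the 101 densest 26.3% and 47.3%.

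Shared regions numbered 2395, with a median of 2 per gene and 0 in 76 genes. GSE1, a chromatin co-regulator, had the most per length, 71 regions or 14.0 per 100 kb. Its density was 21.5 and 22.5 per 100 kb, and that of its flanks 27.2 and 18.5. CDH4, or R-cadherin, had 92 regions (13.4 per 100 kb), CACNA1C, the pore subunit of an L-type calcium channel, 76 (10.5), SHANK2, a synaptic scaffold, 73 (9.29), and SORCS2, a sorting receptor, 41 (7.45). Their log2 ratios lay between −0.33 and 0.36 in both lists, so these 5 genes stood in neighbourhoods as dense as themselves. None of the 5 was called.

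Genes were also described by role, in 10 lists of known function that can share members. Calls in both lists stand below beside the number of genes tested in both, and compare with 8.33% lower and 3.17% higher over all very long genes tested. Each median stands beside medians of −0.36 and −0.27 over all very long genes. Over all 17885 and 17199 genes tested the medians were 0.56 and 0.62, where the added 0.5 peaks lift short spans. With an addition in proportion to length, the very long genes had −0.37 and −0.27, the class of 200 to 500 kb −0.05 and −0.12, and all 19122 genes 0.00 and −0.44.

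Common fragile site genes had the most negative medians of the 10 lists in both replicates, −1.10 and −0.68 over 23 genes. All genes of 1000 kb or more had −0.56 and −0.64, so the replicate 2 value was near that of the longest class. Of the 23, 15 were below their flanks in both lists and 4 above, beside 158 and 78 of all 303. PARD3B, a cell polarity gene, and DLG2 were called lower, 2 of 19 tested (10.5%), and 0 higher. PARD3B held 21 peaks against 80 and 13 against 39. NBEA, a trafficking protein gene, had the lowest mean ratio, with 3 peaks against 20 and 1 against 18. RORA, a nuclear receptor gene, had the highest, with 60 against 45 and 25 against 23. Neuronal adhesion molecules had medians of −0.61 and −0.64 over 19 genes, with 0 of 14 tested called lower and NTM called higher (7.14%). NLGN1, a neuroligin, held 3 and 0 peaks against 10 and 6, and CNTNAP5, a relative of CNTNAP2, 2 and 8 against 2 and 1.

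Cadherins and catenins had positive medians, 0.35 and 0.44 over 10 genes, with 0 of 9 tested called. CDH12, a neuronal cadherin, held 12 peaks against 7 and 10 against 2. Axon guidance genes had −0.02 and 0.22 over 12 genes, with 0 of 10 tested called in either direction. Among them ROBO2, a Slit receptor, held 26 and 27 peaks against 11 and 5, and SEMA3A, a repelling ligand, 0 and 1 against 4 and 2. The 18 glutamate receptor and synaptic scaffold genes had −0.15 and −0.46. Of 14 tested, DLGAP2, DLG2 and ERC1 were called lower (21.4%) and GRID1 higher (7.14%).

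Ion channel genes had medians of −0.36 and 0.12 over 10 genes, of opposite sign in the 2 lists, and 0 of 9 tested were called. KCNMA1, the pore of the BK potassium channel, held 159 peaks against 82 in replicate 1 (adjusted p 1.23e-09, exact binomial test) and 71 against 52 in replicate 2 (adjusted p 0.0725). DPP10, an accessory subunit of A-type potassium channels, held 1 and 4 peaks in 1403 kb. Receptor tyrosine phosphatases had −0.84 and −0.53 over 6 genes, with 0 of 4 tested called. PTPRK, which acts at cell contacts, held 0 peaks in both lists against 9 and 3, and PTPRT held 191 and 106 against 154 and 79, so the family reached from empty to dense.

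Signalling genes had −0.07 and 0.23 over 20 genes, and ADK was the 1 called of 16 tested, lower (6.25%). PDE4D, a cyclic AMP phosphodiesterase, held 29 and 15 peaks against 29 and 8, and PDE1A, of the calmodulin-dependent family, 6 and 8 against 14 and 3. Transcription and RNA-binding factors had −0.02 and −0.06 over 22 genes, with SOX6 called lower and ZFHX3 higher of 21 tested (4.76% each). The 10 large receptors of the CUB-sushi, teneurin and LDL receptor families had 0.18 and −0.08, with TENM4 called higher of 8 tested (12.5%). CSMD3 held 1 and 3 peaks in 1214 kb. The 166 genes in no list had −0.46 and −0.36, with 15 of 139 tested called lower (10.8%) and 4 higher (2.88%).

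Levels also differed by chromosome. Across the 21 chromosomes with members, the median density of their very long genes went with the density of the chromosome (Spearman 0.74 and 0.629), with the highest medians on chromosome 16 in both lists (14.4 and 6.94 per 100 kb). The lowest was on chromosome 21 in replicate 1 (0.478, from 2 genes) and on chromosome 4 in replicate 2 (0.492). Chromosome 20, the densest of the 21 in both lists at 14.1 and 8.91, had 7 very long genes with a median density of 10.7 and 6.5. The median log2 ratio was below 0 in both lists on 14 of the 21.

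Genes at the length limit differed among themselves. Just above 500 kb, PPP2R2B held 20 and 9 peaks against 24 and 13 in its flanks, PPFIA2 4 and 7 against 11 and 9, and SPOCK3 9 and 3 against 12 and 4. CCDC178 held 2 and 1 against 13 and 8, and ERC1, which was called lower, 27 and 13 against 154 and 96. Just under 500 kb, DIAPH3 held 1 and 1 against 10 and 10, and CPQ 1 and 5 against 31 and 29. ITPR2 held 24 and 6 against 44 and 24, CACNA2D1 3 and 2 against 5 and 8, and DST 15 and 7 against 23 and 9. Genes with few peaks beside denser flanks thus stood on both sides of the limit.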

How the data were processed

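The broad peak lists of both ChIP replicates were analysed as the authors deposited them. Per the submitters' processing notes, the tools were Bowtie2 2.2.9 and MACS2 2.1.1 and the build was hg38; settings and thresholds were not stated. Column 5 of the deposited lists holds a score, column 7 the caller's fold enrichment (a ratio), and columns 8 and 9 the −log10 of its p-value and of its q-value, all the authors' own values per peak. Peaks of replicate 2 are named with "Merge", which the labels do not explain. The inputs enter only through the caller.

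Gene spans were those of RefSeq (GRCh38.p14) and strands from RefSeq promoters, matched by gene identifier. The strand was left blank where a gene had no match or its promoters lay on more than 1 strand. A peak counted where its centre fell; 41 spans hold other protein-coding genes, and 4 meet another very long gene. Peak-free stretches were measured between the first and last gene of each chromosome, and 24 and 3 peaks on alternate contigs were left out. Exact binomial tests, adjusted by Benjamini-Hochberg, were run in Python 3.11.15 with scipy 1.17.1 over all genes and were tested on simulated data. The simulated counts were independent, which the peaks were not, so that check does not cover clustered peaks. The p-values cover counting error within a list, and calls had to recur in both lists. Intervals are Wilson 95%.

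Named genes were the 10 longest; the 5 lowest and 5 highest called in both lists; the 5 with the longest stretch free of peaks; the 5 with most shared regions per 100 kb; the 5 on each side of 500 kb; and, per role list, the longest, the highest and the lowest. Further called genes and promoters were named after their values were seen. The genes and lists were chosen with earlier results of these data known. Alternatives changed the peaks used, the flanks, the span limit, the test and the distances.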

Additional observations from a re-analysis of the deposited data

How the results depend on the processing

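The median log2 ratio of span to flank density stayed below 0 in all 18 alternatives, from −0.573 to −0.193; it moved by more than the spread of the lists with peaks within 5 kb merged (−0.193), without 5 kb around gene ends (−0.239), with covered base pairs (−0.433) and for spans of 750 kb or more (−0.573). Genes called lower numbered 1 at a q limit (−log10 of 2 or more), 1 with peaks above the median fold of their list, 1 with peaks merged, 9 with overdispersion, 34 for spans of 400 kb or more and 9 for 750 kb or more, and single lists gave 22 to 47. Genes called higher numbered 0 (3 at an unadjusted exact binomial p under 0.05), 1, 0 (7 at an unadjusted p) and 4 under the first 4 of these settings, 5 with equal numbers of peaks and 14 for 400 kb, and single lists gave 8 to 22. SUPT3H was the gene that stayed called lower in the first 3 of these. Stricter settings test fewer peaks. The span limits of 400 and 750 kb change only which genes are counted, so their counts do not show the result growing or shrinking. The shares of all genes called in both lists stayed at 0.999% lower and 0.806% higher there.

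Overlap of replicate 1 peaks was 8.13% at the q limit, 9.57% above the median fold, 26.7% with equal numbers, 31.1% merged and 8.26% at a reciprocal overlap of 50%; for replicate 2 it was 15.8%, 12.6%, 23.7%, 46.1% and 14.2%. The share in peak-free stretches was 63.6%, 51.7% and 47.9% under the first 3, 55.7% and 22.3% for stretches of 50 and 200 kb, and 49.8 to 58.3% for single lists. The ratio of gene ends to interior was 1.569 at the q limit, 1.488 with equal numbers, 1.328 merged, 1.337 without 5 kb around gene ends and 1.580 for 20 kb ends, and 1.396 to 1.452 for single lists. Of 664 values of 48 named genes under alternatives, 509 kept their call or stayed within the spread of the lists, 95 moved, and 46 lost and 14 gained a call. No called gene among the 48 changed sign, and 31 values of 15 uncalled genes did, such as KCNMA1 above the median fold (1.079 to −0.214) and NAALADL2 at the q limit (−1.518 to 0.707).

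No paired analysis was possible because the inputs have no peak list of their own here and the comparison is between spans and flanks of 1 list. Further alternatives were chosen after seeing the data: gene-free stretches of 1 Mb or more left out, protein-coding genes left out of the flanks, a pseudocount in proportion to length, genes with at least 10 peaks, and genes that hold no other gene; the median log2 ratio was −0.315, −0.303, −0.320, −0.273 and −0.304 under them. Depth is unknown, 2 replicates limit every spread, and peaks were weak.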
